A study of Mus musculus with 2 samples.

Results

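The genes described here are the replication-dependent histone genes of the mouse, measured in total RNA of skeletal muscle. They were chosen by name: the gene's name starts with Hist1h, Hist2h, Hist3h or Hist4h, and at least 1 of its annotated transcripts is protein-coding. The rule found 67 of the 55536 genes in the tables and left out 3 pseudogenes that carry such names. By histone type there were 6 genes for H1, 18 for H2A, 18 for H2B, 12 for H3 and 13 for H4.

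The tissue was gastrocnemius, the large calf muscle, from 2 adult female mice aged 8 to 10 months, 1 library per animal. Both were B6CASTF1/J animals, hybrids of B6 and Cast mice, with no treatment or engineered allele given in the labels. Library preparation took 300 ng of RNA depleted of ribosomal RNA and used a directional kit and ERCC spike-in RNAs. Animal 1 of the labels is replicate 1 and animal 3 is replicate 2. They form 1 group, so no test between groups exists, no p-value is given, and each error is the standard deviation between the 2 animals (n = 2).

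Histones are the proteins around which DNA is wound. H2A, H2B, H3 and H4 form the core of the nucleosome, and H1 binds the DNA that enters and leaves it. Replication-dependent histone genes lie in clusters, mostly lack introns, and are best known for a burst of transcription while a cell copies its DNA. Their messenger RNAs usually end a few bases after a conserved stem-loop rather than in a poly(A) tail, so that total RNA can show them where poly(A) selection loses them. Nuclei of mature muscle fibres do not divide, and replication-independent variants such as H3.3 are known to supply histones outside S phase.

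The stem-loop is the sequence these messages share and it is shown first, because it set the genes of 1 histone type apart from the rest. It was searched by its name, as the histone 3' stem-loop consensus of 16 bases on the transcript's own strand, in the GENCODE M21 transcripts. Below are 9 examples that cover the 7 forms found, each with 5 flanking bases on either side. The capitals mark the stem-loop, which has 6 paired positions in its stem and 4 bases in its loop.
Hist1h1c: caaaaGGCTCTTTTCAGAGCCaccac
Hist2h2aa2: aaaaaGGCTCTTTTCAGAGCCaccca
Hist1h2be: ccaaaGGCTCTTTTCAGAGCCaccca
Hist2h2ac: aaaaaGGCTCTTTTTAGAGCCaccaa
Hist1h3e: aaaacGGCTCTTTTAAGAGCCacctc
Hist1h3g: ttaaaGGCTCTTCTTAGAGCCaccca
Hist1h4h: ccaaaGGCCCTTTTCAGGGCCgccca
Hist1h4i: ttaaaGGCCCTTTTTAGGGCCaccac
Hist1h4a: ccaaaGGCCCTTCTCAGGGCCgccca

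A stem-loop was found in 44 of the 67 genes (65.67%), against 14 of 55383 other genes (0.025%). A transcript annotated without its 3' end cannot show a match, so this share depends on the annotation. Of the transcripts without a match, 16 were shorter than 420 bases. The commonest form, carried by Hist1h1c, Hist2h2aa2 and Hist1h2be above, was found in 26 genes of types H1, H2A, H2B and H3. Counted from 1 at the 5' end of the 16 bases, the form of Hist1h4h differs from it by T4C and A13G, a change on both sides of the stem that keeps the pair. All 10 H4 genes with a match carried T4C and A13G, and none of the 34 matches in H1, H2A, H2B and H3 genes did. The remaining differences lay in the loop, at T8C and at C10A or C10T. The search let bases vary only at set positions of the stem and loop. A sequence differing elsewhere was counted as no match, so differences at other positions could not be seen. Levels of genes with these forms are given with the transcript ends further on.

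Levels are given in TPM, the expected count of a transcript divided by its effective length and scaled to a fixed total per library. The libraries held 42714567 and 43421652 expected counts. Together the 67 genes reached 483.6 TPM in replicate 1 and 443.8 TPM in replicate 2, a mean of 464 ± 28.2 TPM (SD, n = 2). This was 0.101 ± 0.00159% of the TPM of nuclear protein-coding genes. In bulk tissue, fewer cells of a type and less RNA per cell cannot be told apart, and levels here are averages over all cells of the muscle. With a threshold of 1 TPM in both animals, 31 of the 67 genes (46.3%) were detected, beside 43.9% of all 22015 nuclear protein-coding genes. Another 11 genes reached 1 TPM in 1 animal only, and 25 in neither.

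H4 genes held the most of this level and H3 genes the least. The summed level of the 13 H4 genes was 185.4 and 161.1 TPM, which is 37.3 ± 1.43% of the total for all 67. The 6 H1 genes followed with 110.8 and 111.9 TPM (24.1 ± 1.63%). The 18 H2A genes held 75.9 and 74.1 TPM (16.2 ± 0.722%), and the 18 H2B genes held 81.5 and 66.7 TPM (15.9 ± 1.28%). In these values H2A and H2B did not differ beyond the spread between animals. The 12 H3 genes held 30.2 and 29.9 TPM (6.49 ± 0.356%), 5.76-fold below H4. In expected counts, which are not divided by length, H1 came first with 44.6 ± 2.52% and H4 second with 24.4 ± 1.34%. H2A held 10.5 ± 0.134% of these counts and H2B 16.1 ± 1.31%. In a second quantification, described further on, H2A held 78.5 ± 2.58 TPM and H2B 56.2 ± 7.54 TPM. Both of these measures set H2A and H2B apart beyond the spread, but in opposite directions.

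**Figure D1:**
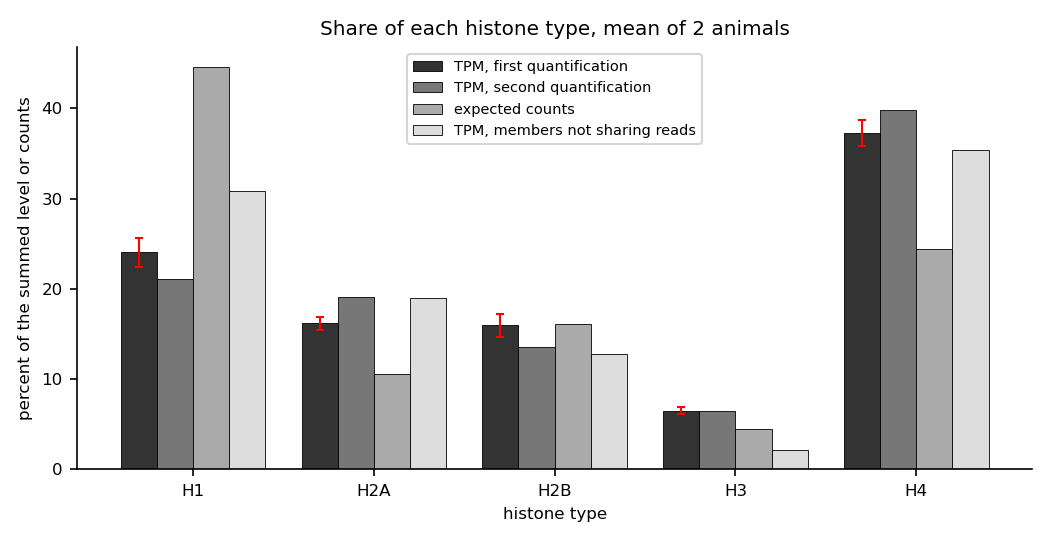
Percent of the summed level of 67 replication-dependent histone genes held by each histone type, as the mean of 2 animals. The bars of each type show TPM of the first quantification, TPM of the second, expected counts, and TPM of the genes not called as sharing reads. The last set includes Hist2h2aa2. Red error bars are the SD over the 2 animals for the first. H4 is highest in the 3 sets of bars based on TPM, and H1 is highest in expected counts.

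A few genes carried most of the signal. The 10 highest genes held 76.8 ± 1.95% of the summed TPM. Only 3 genes had a mean of 50 TPM or more, 6 lay between 10 and 50 TPM, and 27 between 1 and 10 TPM. The median gene of the 67 was at 1.52 TPM in replicate 1 and 1.08 TPM in replicate 2.

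**Figure D2:**
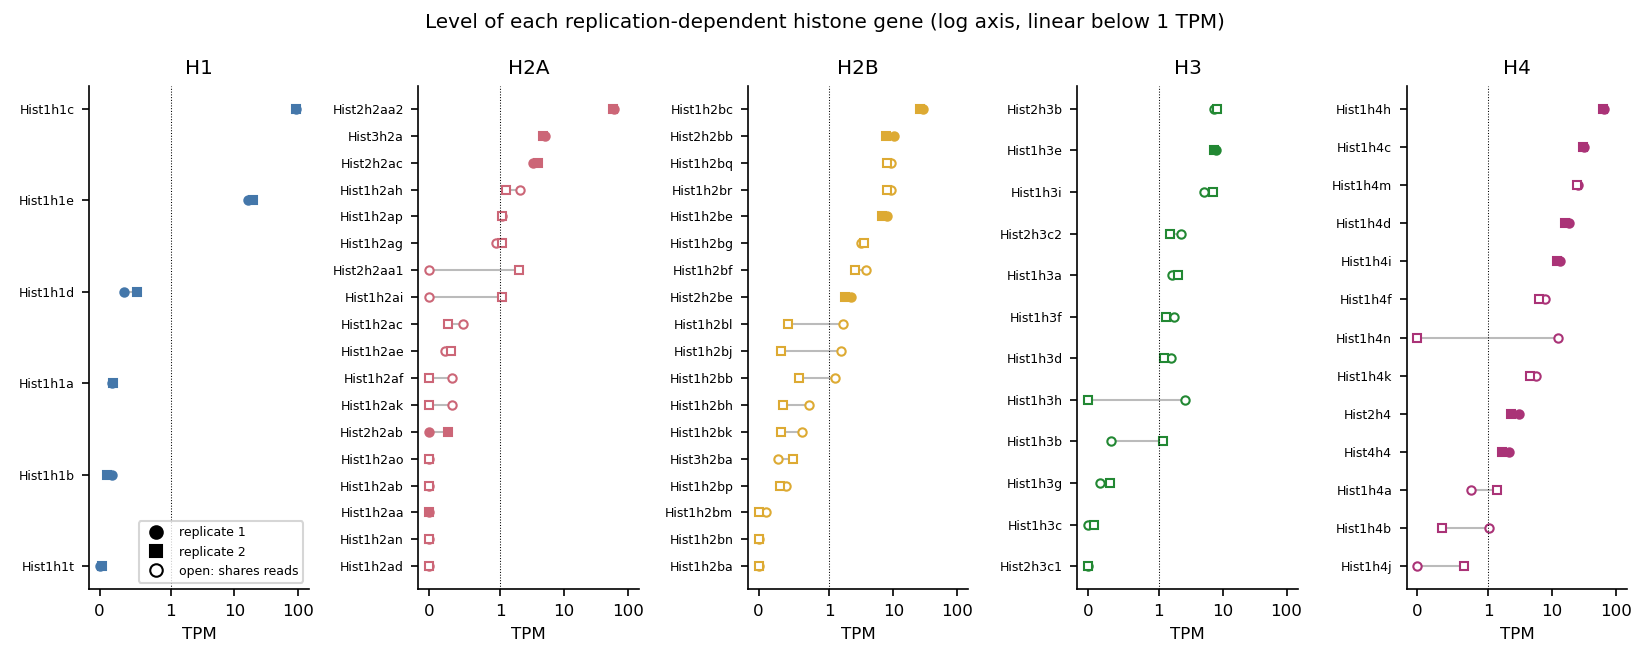
Level of each of the 67 genes in TPM, in 1 panel per histone type, on an axis that is logarithmic above 1 TPM and linear below it. Circles are replicate 1, squares are replicate 2, and open symbols mark genes that share reads. Hist1h1c, Hist1h4h and Hist2h2aa2 stand highest, and the genes at 0 in 1 animal and over 1 TPM in the other are all open symbols.

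Among the linker histones, Hist1h1c (ENSMUSG00000036181, chr13:23738808-23740367, plus strand) was the highest gene of all 67. It measured 93.8 TPM in replicate 1 and 91.2 TPM in replicate 2 (92.5 ± 1.85 TPM), from 3844 and 4283 expected counts, and ranked 563 among nuclear protein-coding genes. Hist1h1e measured 16.3 and 19.8 TPM and was the next H1 gene, 5.13-fold below. Its deposited credibility bounds ran from 14.8 to 17.0 TPM and from 18.2 to 20.5 TPM. Such bounds cover counting and read assignment within a library, not variation between animals.

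The other H1 genes were all under 1 TPM. Hist1h1d had 71.1 and 122.9 expected counts, but its annotated transcript of 7425 bases brought this to 0.35 and 0.52 TPM. Hist1h1a and Hist1h1b had between 2 and 4 counts in each animal. Hist1h1t, the testis-specific linker histone, had 0 and 1 count. Hist1h1c and Hist1h1e together made up 99.3% of the H1 level.

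H2A was dominated by a gene pair on chromosome 3. Hist2h2aa2 measured 62.1 and 58.2 TPM (746.2 and 801.3 counts), while its near-identical copy Hist2h2aa1 was listed at 0 and 1.99 TPM (0 and 31.2 counts). All 101-base stretches of Hist2h2aa2 recurred in a transcript of another gene, so reads from it cannot be assigned to it alone. Of the stretches of Hist2h2aa1, 88.3% recurred and the rest were its own. The sum of the pair was 62.1 and 60.2 TPM. The noncoding gene Gm20634, listed with 190.9 and 234.2 counts, holds all of the 428 stretches of Hist2h2aa2 and 429 of those of Hist2h2aa1 (88.3%), so the sum is not free of read sharing either. The next H2A genes were Hist3h2a with 5.08 and 4.74 TPM and Hist2h2ac with 3.25 and 3.90 TPM. Of the 18 H2A genes 5 were detected, the lowest being Hist1h2ap at 1.06 and 1.07 TPM. Its detection is uncertain: 92.15% of its 101-base stretches recur elsewhere, and the second quantification gave it 0 and 7.3e-05 counts. Hist1h2ag, at 0.95 and 1.08 TPM, lay just outside. Hist1h2ah, the remaining detected gene, measured 2.04 and 1.24 TPM, shares reads, and falls in a group with 6 other H2A genes, given further on. In the second quantification Hist1h2ai, listed here at 0 and 1.07 TPM, had 5.58 and 4.66 TPM, so which gene of that group is detected differed between the quantifications.

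Hist1h2bc (chr13:23684199-23692908, plus strand) led the H2B genes with 29.6 and 26.0 TPM, from 875.9 and 883.7 counts. It was 3.06-fold above Hist2h2bb, which measured 10.4 and 7.77 TPM. Hist1h2bq (9.12 and 7.92 TPM) and Hist1h2br (9.05 and 7.87 TPM) came next and their values cannot be separated, since Hist1h2bq-201 and Hist1h2br-202 are 381-base transcripts of identical sequence. Hist1h2be followed at 7.88 and 6.67 TPM. Of this, 6.47 and 5.45 TPM lay in Hist1h2be-203, which is annotated as a processed transcript, not as protein-coding, and holds no stem-loop match. The 3 highest H2B genes made up 61.2% of the type's level, against 68.6% to 99.7% for the 3 highest of each other type. Of the 18 H2B genes 8 were detected; the remaining detected ones were Hist1h2bg (3.09 and 3.49 TPM), Hist1h2bf (3.72 and 2.49 TPM) and Hist2h2be (2.19 and 1.78 TPM). Hist1h2bl, Hist1h2bj and Hist1h2bb passed 1 TPM in replicate 1 only, at 1.64, 1.52 and 1.24 TPM, against 0.41, 0.31 and 0.57 TPM in replicate 2. All 3 share reads and had at most 15.5 counts.

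H3 had no gene above 10 TPM. Hist2h3b measured 7.21 and 8.03 TPM, Hist1h3e 7.81 and 7.42 TPM, and Hist1h3i 5.06 and 6.99 TPM. The means of Hist2h3b and Hist1h3e, both 7.62 TPM, lay closer together than their spread. The next were Hist2h3c2 (2.21 and 1.47 TPM), Hist1h3a (1.61 and 1.99 TPM), Hist1h3f (1.71 and 1.28 TPM) and Hist1h3d (1.53 and 1.21 TPM). Of the 12 H3 genes 7 were detected, and 11 shared reads, by the measure of posterior spread given further on. Hist1h3e was the only H3 gene not called, but 42.3% of its 101-base stretches recur elsewhere, and its mean was 168.5 counts in the first quantification and 105.8 in the second.

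H4 had the most genes at high levels, although all H4 genes of the clusters encode the same or nearly the same protein. Hist1h4h measured 63.8 and 61.6 TPM and Hist1h4c 31.8 and 30.3 TPM. Hist1h4m followed with 25.3 and 24.7 TPM. Hist1h4d measured 18.5 and 15.6 TPM, and Hist1h4i 13.3 and 11.8 TPM. The gaps between these neighbours were larger than the spread between animals in this quantification. In the second the order of Hist1h4m (37.5 and 24.4 TPM) and Hist1h4c (18.1 and 17.3 TPM) was turned. Hist1h4m shares reads, and its deposited bounds of 13.4 to 34.9 TPM in replicate 1 take in the values of Hist1h4c and Hist1h4d. Hist1h4f measured 7.81 and 6.29 TPM, Hist1h4k 5.63 and 4.48 TPM and Hist2h4 3.03 and 2.30 TPM. Hist4h4, the lone gene on chromosome 6, measured 2.09 and 1.65 TPM. Of the 13 H4 genes 9 were detected.

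Genes known for testis stood at or near 0. Hist1h2aa and Hist1h2ba, the testis-specific H2A and H2B pair, were listed at 0 counts in both animals. In all, 8 genes had 0 counts in both. Such a count allows up to 3, which is a CPM (counts scaled by library total) of 0.0702 and 0.0691 in the 2 animals, and covers counting error only. That limit applies to Hist1h2aa. The other 7 share reads, and their deposited upper bounds of TPM reached 1.57 for Hist1h2ao in replicate 1.

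By position, 54 of the 67 genes lie on chromosome 13 and held 385.8 and 351.2 TPM, 79.5% of the total. The stretch chr13:23531050-23764406 held 29 genes and 294.7 and 280.9 TPM. The 18 genes of chr13:21715763-21837530 held 72.7 and 55.6 TPM, and 17 of these 18 shared reads. The 10 genes on chromosome 3 held 90.4 and 85.7 TPM.

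Read sharing was called for most of these genes. Sharing was called where, in at least 1 animal, the deposited SD of a gene's posterior count was over 5% of the posterior mean. It was called for 45 of the 67: none of 6 for H1, 13 of 18 for H2A, 14 of 18 for H2B, 11 of 12 for H3 and 7 of 13 for H4. The share of all genes past this limit was not computed, so it is not known whether histone genes stand out. Genes with few counts can pass it as well. Hist1h2bm, with 1.19 and 0 counts, was called although only 6.37% of its 101-base stretches recur elsewhere. Of the 31 detected genes, 15 shared reads. The measure missed the Hist2h2aa2 copy, whose posterior SD was 4.46%. A second measure came from the sequences themselves, as the share of a gene's 101-base stretches that recur in a transcript of another gene. Its median was 0.38% for H1, 64.4% for H2A, 36.1% for H2B, 49.4% for H3 and 18.8% for H4. Only 7 genes had no stretch in common with another gene, among them Hist1h4d, Hist2h4 and Hist2h2be.

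Genes were joined where 60% or more of the stretches of 1 gene recurred in the other, and such links were chained, which gave 8 groups. A link can hold in 1 direction only, so genes of a group need not be near-identical. Hist1h3h had 60.1% of its stretches in Hist1h3d, but Hist1h3d had 16.3% of its own in Hist1h3h. The largest held 7 H2A genes (Hist1h2ab, Hist1h2ad, Hist1h2ae, Hist1h2af, Hist1h2ah, Hist1h2ai and Hist1h2an), with 24.0 and 28.3 counts in all. Hist1h2ag, Hist1h2ao and Hist1h2ap formed another with 21.6 and 26.6 counts. Hist1h2bk, Hist1h2bq and Hist1h2br held 151.7 and 149.4 counts. The H3 groups were Hist1h3b, Hist1h3d and Hist1h3h with 76.3 and 63.9 counts, and Hist2h3b, Hist2h3c1 and Hist2h3c2 with 135.7 and 143.6 counts. For H4 they were Hist1h4a, Hist1h4b and Hist1h4k with 51.4 and 52.8 counts, and Hist1h4m with Hist1h4n. Hist2h2aa1 and Hist2h2aa2 made up the last group, with 746.2 and 832.4 counts.

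Genes outside the 67 also took part. All exon bases of Hist2h3c1 lie within the noncoding Gm20634 on the same strand, which held 190.9 and 234.2 counts while Hist2h3c1 was at 0. The pseudogene Hist1h2al, left out by the rule, was listed with 108.3 and 115.9 counts in the first quantification and 0 in the second. Hist1h1e and Hist1h2be overlap on the same strand by 496 bases. Hist2h2aa2 lies wholly within the antisense gene Gm20632, listed at 17.0 and 20.5 counts against 746.2 and 801.3 for Hist2h2aa2. The kit kept strand, but the strand setting of the counting is not given in the sources used here.

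A second deposited quantification, made directly from the reads, gave different counts for many of these genes. Over the 37 genes with a mean count of at least 20 in either table, 11 differed by more than 2-fold, and 10 of these 11 shared reads. The other was Hist2h2bb, at a mean of 76.1 counts in the first and 31.5 in the second. Genes that share reads were also found under 2-fold, such as Hist2h3b (1.17-fold) and Hist1h4m (1.15-fold). The share of all genes past 2-fold between the quantifications was not computed, so it is not known whether histone genes stand out. Several of the higher genes that were not called as sharing reads were also lower in the second, by 1.92-fold for Hist2h2aa2, 1.80-fold for Hist1h4i, 1.66-fold for Hist1h4d, 1.61-fold for Hist1h4c and 1.59-fold for Hist1h3e. Hist1h4d (530.4 and 318.6 counts) and Hist2h4 (121.5 and 81.0 counts) have no stretch in common with another gene. The means of the H4 genes summed to 2817 counts in the first and 2128 in the second. Hist2h2aa1 moved the most, from a mean of 15.6 to 388.7 counts, as Hist2h2aa2 moved from 773.8 to 402.2. The sum of the pair was 746.2 and 832.4 counts in the first and 755.1 and 826.6 in the second. Summing did not remove every difference: Hist1h2bk, Hist1h2bq and Hist1h2br together went from 151.7 and 149.4 counts to 25.8 and 23.9. Hist1h2bp went from a mean of 3.8 to 88.7 counts. The second table placed Hist1h4h first and Hist1h1c second.

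**Figure D3:**
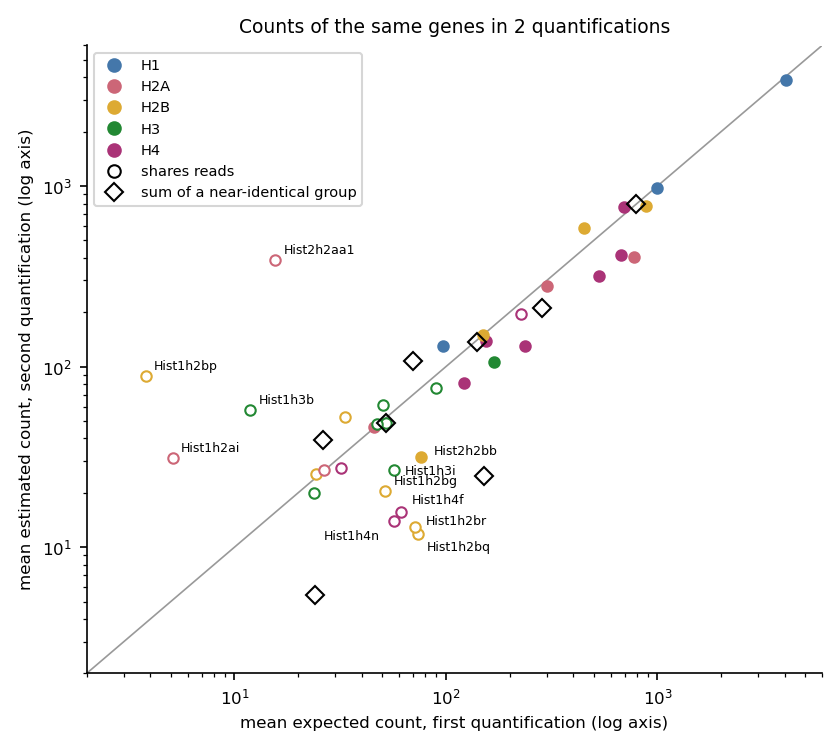
Mean count of each gene in the first quantification against the second, both on log axes, for the 37 genes with a mean of at least 20 in either. Open circles share reads, and the line marks equal counts. Diamonds are the sums of the groups joined by shared stretches, which the legend calls near-identical. Hist2h2aa1 and Hist1h2bp lie far above the line, Hist1h2bq and Hist1h2br below it, and the diamond of the Hist2h2aa pair on it.

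The annotated ends of the transcripts were set against the stem-loop. Of the 75 transcripts of the 67 genes, 22 ended within 3 to 74 bases after the stem-loop, 24 ran on for 108 to 4884 bases, and 29 held no match. Transcripts that run on held 43.3 ± 1.46% of the summed TPM, those that end near it 38.0 ± 0.720%, and those without a match 18.7 ± 0.741%. The tables give 1 value per transcript, so reads before and after the stem-loop cannot be told apart, and short messages of a gene whose only annotated transcript is long are counted to the long one.

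The types differed in this respect. For H1, 99.7% of the level lay in transcripts that run on, such as that of Hist1h1c, which goes on for 840 bases. For H2A, 89.1 ± 0.361% lay in transcripts that end near the stem-loop, chiefly Hist2h2aa2, which ends 35 bases after it. For H4, Hist1h4h ends 46 bases after it and Hist1h4c 454 bases after it, and the ending-near class held 58.2 ± 0.989%. For H2B, 84.8 ± 1.26% lay in transcripts with no match, led by Hist1h2bc. Of the 29 transcripts without a match 16 were shorter than 420 bases. For H2B these include Hist1h2bq-201, Hist1h2br-202 and Hist2h2bb-201, each of 381 bases. Hist1h2bc-201 (1156 bases), Hist1h2be-203 (2099 bases) and Hist2h2be-201 (2620 bases) are longer and held no match either. Genes with the H4 form of Hist1h4h held 161.6 and 140.2 TPM in all, and genes with the commonest form 203.7 and 199.1 TPM.

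Histone H2A and H2B genes often lie head to head. Within 500 bases, 12 such pairs were found, each an H2A gene and an H2B gene with starts 176 to 306 bases apart. In 6 pairs the H2B gene was higher in both animals, and in 2 the H2A gene was. Both partners were detected in 2 pairs, and neither in 5. Hist1h2ap with Hist1h2br is among the former, and both genes share reads. Hist1h2bq and Hist1h2br, each higher than its H2A partner, have an identical transcript, so their values cannot be separated. The widest gap, among pairs with a level above 0 on both sides, was that of Hist1h2ac (0.48 and 0.27 TPM) and Hist1h2bc (29.6 and 26.0 TPM), 74.1-fold between the means. In expected counts, not divided by the transcript lengths of 2482 and 1156 bases, their means were 26.6 and 879.8, 33.1-fold apart. In the second quantification their means were 0.299 and 20.9 TPM. Hist2h2ac (3.25 and 3.90 TPM) and Hist2h2be (2.19 and 1.78 TPM), the only pair in which neither gene was called as sharing reads, went the other way in TPM. Their expected counts, 38.3 and 52.7 against 155.0 and 144.0, had the reverse order, on transcripts of 520 and 2620 bases.

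The sequences between the starts of these 2 pairs are shown because the first had the widest gap and the second is the only pair in which neither gene was called as sharing reads. They are from RefSeq's promoter table on GRCm38.p6, read 5' to 3' on the minus strand toward the H2A gene. Capitals mark the octamer ATTTGCAT, TATAAA and CCAAT on either strand. The first lies at chr13:23683949-23684198 and the second at chr3:96220881-96221118.
Hist1h2ac and Hist1h2bc: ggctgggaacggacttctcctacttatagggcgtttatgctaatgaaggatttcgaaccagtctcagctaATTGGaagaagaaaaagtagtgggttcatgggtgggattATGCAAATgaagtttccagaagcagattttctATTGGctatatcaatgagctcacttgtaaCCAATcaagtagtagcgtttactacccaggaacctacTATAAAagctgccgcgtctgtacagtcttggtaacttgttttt
Hist2h2ac and Hist2h2be: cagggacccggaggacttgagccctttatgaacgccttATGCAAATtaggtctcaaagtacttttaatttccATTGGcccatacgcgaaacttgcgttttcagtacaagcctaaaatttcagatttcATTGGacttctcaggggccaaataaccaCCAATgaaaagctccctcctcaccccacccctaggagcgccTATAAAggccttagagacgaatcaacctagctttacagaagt

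Both stretches held 1 octamer, 1 TATAAA and 3 CCAAT matches, so these counts did not separate them. The octamer is known as a binding site of Oct1 in H2B promoters, and CCAAT of the factor NF-Y. Promoters in that table, which run from 250 bases before to 50 bases after a start, were matched for 62 of the 67 genes by gene and strand within 2000 bases of the annotated start. The windows of head-to-head neighbours overlap, so a match can count for both. The octamer, on either strand, was found in 7 of 18 H2A and 6 of 16 H2B promoters and in no H1, H3 or H4 promoter, against 1.74% of all 32851 promoters. CCAAT was found in every matched promoter of types H1, H2A, H2B and H3 and in 3 of 12 for H4 (25%), against 37.4% of all. TATAAA was found in 35 of 62 (56.5%), against 13.6% of all.

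**Figure D4:**
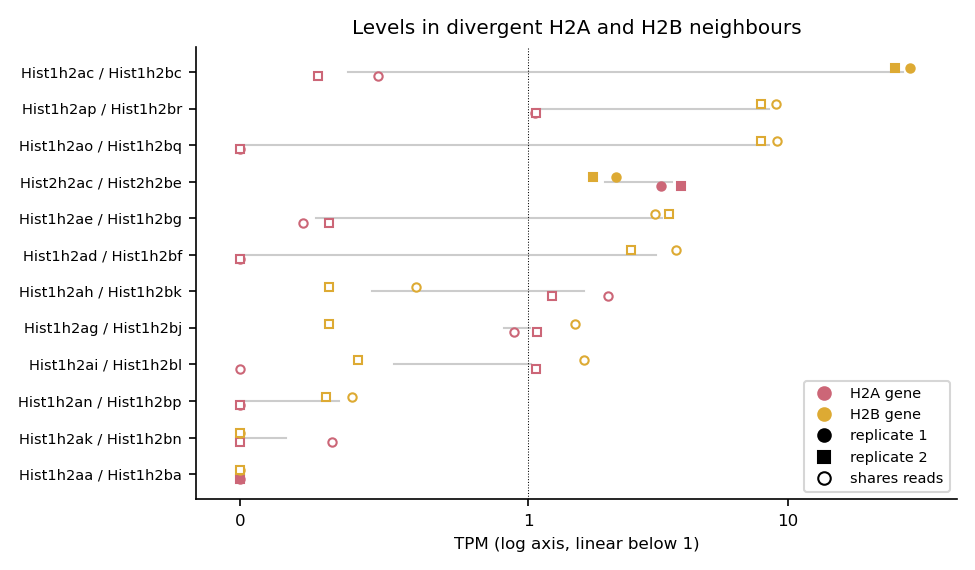
Level in TPM of the H2A gene and the H2B gene of each of 12 divergent pairs, on an axis that is logarithmic above 1 TPM and linear below it. Circles are replicate 1, squares replicate 2, open symbols share reads, and grey lines join the means. Hist1h2bc lies far to the right of Hist1h2ac, and Hist2h2ac to the right of Hist2h2be.

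Replication-independent variants were compared with the 67 genes for H2A, H3 and H1. The variants of H2A held 96.4 and 88.4 TPM, led by H2afz with 32.3 and 31.2 TPM, and the replication-dependent genes held 44.8 ± 1.12% of all H2A. The variants of H3 held 165.0 and 148.5 TPM, mainly H3f3a at 139.8 and 125.2 TPM, one of the genes for H3.3. Replication-dependent genes held only 16.1 ± 0.928% of all H3. H1f0, the linker histone known from resting cells, measured 36.7 and 36.9 TPM, below Hist1h1c and above Hist1h1e. Replication-dependent genes held 75.1 ± 0.0947% of all H1, and 73.6% in the second quantification. Of the 12 variants listed 8 were detected, with a summed level of 287 ± 17.3 TPM.

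Of 19 genes that process or degrade histone messages, 16 were detected, with a summed level of 163 ± 14.0 TPM. The highest were Snrpb (62.4 and 56.5 TPM) and Snrpd3 (34.9 and 28.1 TPM), which encode Sm proteins shared with the spliceosome, and Upf1 (15.4 and 12.4 TPM), a helicase of RNA decay. Slbp, which encodes the protein that binds the stem-loop, measured 3.00 and 2.42 TPM, and Npat, the coactivator of histone gene transcription, 1.99 and 2.23 TPM. These 2 were named for their roles and fall outside the rule for named genes. Rnu7, the small RNA of the 3' end cleavage, was listed at 0 in both animals. This 0 does not show absence. Effective length in the first quantification is the length less 100 bases, which leaves none for RNAs shorter than that.

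Of 16 histone chaperone genes 13 were detected, led by Nap1l4 (76.9 and 74.6 TPM), Nap1l1 (23.7 and 22.5 TPM) and the elongation factor Supt6 (13.4 and 11.5 TPM). Chaf1a and Chaf1b, subunits of the factor that loads histones behind the replication fork, were at 0.34 and 0.31 TPM and at 0.10 and 0.05 TPM. Both are also named for their roles. Of 30 genes of S phase and mitosis 8 were detected, with a summed level of 35.6 ± 4.19 TPM, 13-fold below that of the 67 histone genes. The highest were Pcna (8.55 and 7.91 TPM), the sliding clamp of DNA polymerases, Rrm1 (7.97 and 8.21 TPM), a subunit of ribonucleotide reductase, and Mcm2 (4.24 and 3.77 TPM), of the replicative helicase. Birc5, Bub1 and Ccnb1, all of mitosis, had 0 counts in both animals.

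The animals were compared by the log2 ratio of replicate 2 over replicate 1, for genes with a mean count of at least 50. Of the 11125 genes that qualified, 154 differed by 2-fold or more in either direction, which is 1.38%. Of the 67 histone genes 26 qualified, and 1 of them (3.85%) was 2-fold or more apart. Their median log2 ratio was 0.01, beside 0.00 for all genes that qualified, and 19 of the 26 lay within 0.25. None of the 16 not called as sharing reads was 2-fold apart. These 16 include Hist2h2aa2, which the call missed.

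The gene that was 2-fold apart is Hist1h4n, with 114.0 counts in replicate 1 and 0 in replicate 2. Its credibility bounds overlapped between animals, from 2.49 to 21.4 TPM and from 0.00 to 12.3 TPM, and 80.6% of its 101-base stretches recur elsewhere. Its closest copy Hist1h4m had 214.2 and 240.3 counts. Their sum was 328.1 and 240.3 counts, a log2 ratio of -0.46. Over the 41 histone genes with a mean count of at least 10, 4 were 2-fold apart, beside 4.09% of all 14144 genes with such a mean. Hist1h3h (22.2 and 0 counts), Hist1h3b (4.76 and 19.0 counts) and Hist2h2aa1 (0 and 31.2 counts) joined Hist1h4n, and all 4 share reads.

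Among the 16 genes not called as sharing reads, Hist1h1d had a log2 ratio of 0.76 and Hist1h1e of 0.46, each with more in replicate 2. Scaled to the spike-in RNAs, these were 0.63 and 0.34, and Hist2h2bb at -0.36 and Hist2h4 at -0.34 were as far apart as Hist1h1e. In the second quantification Hist1h1d had 0.74 and Hist2h2bb -0.86. Hist1h1c had 0.14, and 0.01 with spike-in scaling. The sum of H1 counts gave 0.21. The sum over all 67 genes, 11109 and 12033 counts, gave 0.10. With spike-in scaling, which shifted the median of all genes to -0.12, the sum of all 67 gave -0.03 and that of H1 0.09. The sums for H2A, H2B, H3 and H4 gave log2 ratios of 0.13, -0.07, 0.10 and -0.01. With spike-in scaling they gave -0.003, -0.20, -0.03 and -0.14, so the directions for H2A and H3 turned.

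**Figure D5:**
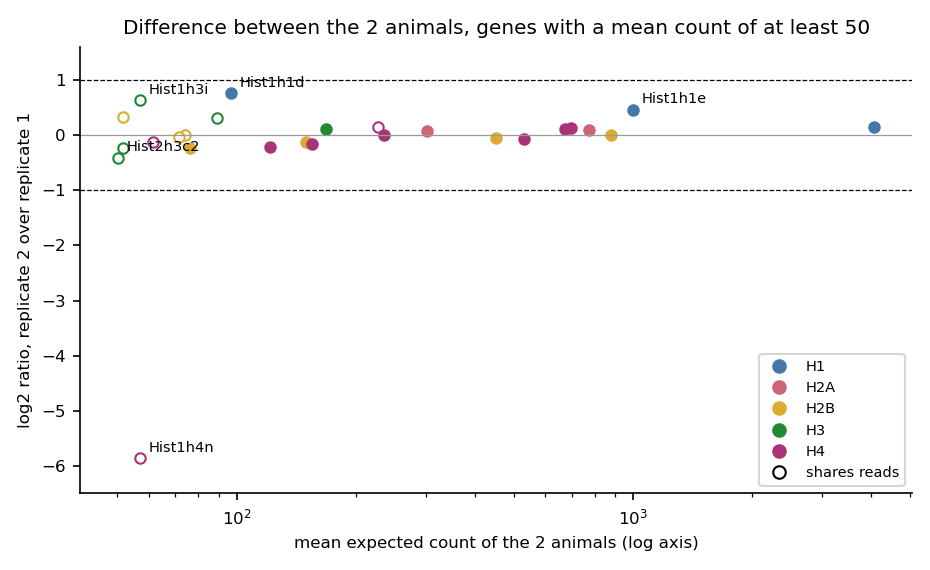
Log2 ratio of replicate 2 over replicate 1 against the mean expected count (log axis) for the 26 histone genes with a mean count of at least 50, coloured by type. Open symbols share reads and dashed lines mark 2-fold. Hist1h4n lies at -5.87 with a count of 0 in replicate 2, and the other 25 genes lie between the dashed lines.

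Markers of muscle fibres were high in both animals, with Acta1, Ckm, Tnnt3, Mylpf and Myh4 summing to 87882 and 77611 TPM. Satellite cell markers summed to 2.24 and 1.97 TPM and neutrophil markers to 0.27 and 0 TPM, with Mpo, Ngp and S100a9 at 0. Endothelial markers summed to 39.0 and 29.9 TPM, fibroblast markers to 109.6 and 80.0 TPM and macrophage markers to 3.70 and 3.82 TPM. The animals differed in Schwann cell markers, 4 of 4 over 2-fold higher in replicate 1 and summing to 41.6 and 6.90 TPM, and in Ighm of the lymphocyte markers (78.3 and 27.4 TPM). The part of these differences in the histone values was not tested.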

How the data were processed

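Total RNA of 2 muscles was measured, 1 library per animal. The authors deposited gene and transcript tables in the layout of RSEM, from alignments, and transcripts in the layout of kallisto, from reads (the second quantification). Per the file headers and notes the genome is mm10 and the annotation GENCODE M21. Programs and versions: not given in the sources used here. Expected counts, as deposited, estimate the reads of each gene and divide shared reads. The deposited TPM are such counts divided by effective length and scaled per library, spike-ins included. In the first quantification the effective length is the length less 100 bases and in the second less about 246, so Hist1h4h (470 bases) had effective lengths of 370 and 224 bases and short transcripts move between the tables. The labels name a single donor identifier for the libraries but different animals and tissue samples; they were counted as 2 animals, and their spread may be in part technical.

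The second quantification was summed over each gene's transcripts. Expected counts were rounded, scaled by TMM in edgeR 4.0.16 (R 4.3.3) and given as log2 ratios of CPM with a prior count of 2. Ratios were checked on simulated data, as was the search for shared stretches of 101 bases. Python 3.11.15 with pandas 2.3.3 and SciPy 1.17.1 was used for tables. Alternatives were the size factors of DESeq2 1.42.0, scaling to spike-ins, the second quantification, posterior mean TPM and other thresholds. Further ones were a prior count of 0.5, only genes not called as sharing reads, and leaving out each animal. The histone genes, companion lists and alternatives were chosen with earlier results of these data known. Named are genes of at least 10 TPM, the 3 highest of each type and list, genes 2-fold apart and those nearest 1 TPM. Genes named in groups or overlaps were taken from the sequences; further examples were chosen after their values were seen.

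With 1 group there is no pairing across groups. Allele of origin was not analysed here. The result of 1 marker list is not reported here.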

Additional observations from a re-analysis of the deposited data

How the results depend on the processing

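Of 73 alternative values, 21 moved past the limit set for them (1 SD between animals, 1.5 times for a count of genes, the counting interval for a log2 ratio) and 2 reversed; the cause was not tested beyond what the alternative itself changes. With 2 animals, a value from 1 animal cannot lie more than 1 SD from the mean, so leaving out an animal tests nothing. With the second quantification, the summed level was 413.2 TPM, the shares of H1, H2A, H2B and H4 were 21.1%, 19.0%, 13.6% and 39.9%, histone genes held 49.8% of H2A and 14.8% of H3, and transcripts that run on held 34.2%. With expected counts the shares of H1, H2A, H3 and H4 were 44.6%, 10.5%, 4.45% and 24.4%. With only genes that do not share reads, H1, H2A, H2B, H3 and H4 held 30.8%, 19.0%, 12.7%, 2.11% and 35.4%. Leaving out an animal gave sums of 443.8 to 483.6 TPM and 36 to 37 genes detected in the animal left.

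Detected genes numbered 34 at 0.5 TPM, 23 at 2 TPM, 35 by 10 counts and 33 in the second quantification. Genes sharing reads numbered 51 at 2% and 39 at 10%. The number 2-fold apart was 4 with a mean count of at least 10 and 0 among genes not called as sharing reads. It was 0 in the second quantification (0.954% of all genes there), where 22 histone genes qualified and Hist1h4n, with 27.8 and 0 counts, did not. Spike-in scaling reversed the log2 ratio of summed counts to -0.029 and the median to -0.12. Without the H1 genes, an alternative chosen after seeing the data, as were leaving out Hist1h1c (0.08) and a run-on limit of 60 bases (43.3%), the summed ratio was 0.0063. With 1 library per animal, depth limits genes under about 10 counts, and differences between animals have no error of their own.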
